A study of Mus musculus with 6 samples.

Results

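A set of 9 genes that serve the recruitment, growth and alarm responses of neutrophils were followed in alkali-burned mouse corneas: the growth factor Csf3, its receptor Csf3r, the chemokine receptor Cxcr2, the formyl peptide receptors Fpr1 and Fpr2, the alarm receptors Trem1, Clec4d and Clec4e, and the histamine-forming enzyme Hdc. They were chosen by name and were found on 11 of the 28539 rows of the authors' gene table. Trem1 shares its row with Trem3, and Csf3 and Csf3r have a second row each. RNA-seq of polyadenylated transcripts was done on whole corneas of female C57BL/6J mice, 6 to 8 weeks old, in 3 groups of 2 samples: untreated corneas (day 0), and corneas taken 5 days and 15 days after the burn, the later time being labelled as a stage of regression. No transgene or further agent is given for any group. Whether a sample was 1 animal or a pool of corneas is not given in the labels. The alkali used is not given in the sources used here. The authors gave 1 FPKM and its interval per group. Values of single samples, their spread and p-values therefore cannot be given. The corneal marker genes Krt5, Krt14, Lum and Dcn each stood above 100 FPKM in every group. Krt12, the keratin that defines corneal epithelium, has no usable value at day 0, where the table marks the locus as holding too much data to estimate (HIDATA), and had 6.81 FPKM at day 5 and 9.67 FPKM at day 15.

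Neutrophils are short-lived white blood cells that leave the bone marrow under the control of granulocyte colony-stimulating factor, the product of Csf3, and enter injured tissue along gradients of chemokines that bind the receptor encoded by Cxcr2. Formyl peptide receptors detect N-formylated peptides released by bacteria and by damaged mitochondria. Trem1, Clec4d and Clec4e encode surface receptors of myeloid cells that amplify inflammatory responses and signal through adaptor proteins. Histidine decarboxylase, the product of Hdc, makes histamine. It is best known from mast cells and basophils, and immature myeloid cells of mouse marrow also express it. The uninjured cornea has no blood vessels and few such cells.

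All 9 genes had their highest FPKM (fragments scaled to transcript length and library size) at day 5, and all 9 stood lower at day 15, though above day 0. At day 0 the highest of the 9 was Hdc, at 0.761 FPKM. At day 5 they spanned 2.52 FPKM for Fpr2 to 61.5 FPKM for Hdc. At day 15 the range ran from 0.663 FPKM for Fpr2 to 4.70 FPKM for Hdc. Both of these had to hold for a pair of groups to be called apart at a locus: intervals of the authors that were free of overlap, and a log2 ratio of (FPKM + 1) of 1 or more in either direction, with the higher FPKM at 1 or above. By this rule 7 of the 9 were higher and apart at day 5 against day 0, where 3.42% of 15576 tested loci were. All 9 stood below 1 FPKM at day 0, so each passed the filter only through its day 5 value. For the same reason none could be lower and apart, a call that 2.5% of loci had. The 7 were Csf3, Csf3r, Cxcr2, Fpr2, the Trem1 row, Clec4d and Hdc. At day 15 against day 0, 3 of the 9 (Csf3r, Cxcr2 and Clec4d) were higher and apart, with 2.91% of 15186 loci as background. Fpr2 was below 1 FPKM in both groups and was not tested. A lower call, which 1.81% of loci had, was again not possible for the 9. Those 3 calls all ended with a pseudocount of 5 and with FPKM of at least 5 required, and Clec4d alone kept its call with a log2 ratio of at least 2 required. At day 15 against day 5, 3 of the 9 (Csf3, the Trem1 row and Hdc) were lower and apart, with 0.388% of 14683 loci as background, and none was higher and apart, with 0.395% as background. These shares of all tested loci are also the background for the counts of the gene lists below.

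The intervals were wide. The distance from the FPKM to its upper bound at day 5 ran from 42.2% of the FPKM for Csf3 to 136% for Clec4e, against a median over loci with FPKM of at least 5 of 52.9%. With the intervals set aside, all 9 had log2 ratios of (FPKM + 1) of at least 1 for day 5 over day 0, as did 10.8% of loci. For day 15 over day 0 it was 6 genes and 8.36% of loci, and for day 15 over day 5 all 9 genes and 3.35% of loci had ratios of -1 or less. The median log2 ratio of the 9 was 3.01 for day 5 over day 0, 1.44 for day 15 over day 0 and -1.77 for day 15 over day 5, beside -0.09, -0.10 and -0.01 over the tested loci. Since all 9 were below 1 FPKM at day 0, their ratios to day 0 could fall only a little. This limits the comparison of those counts and medians with the tested loci. The 2 comparisons with day 0 share the same day 0 values. In whole tissue, fewer cells of a type and less RNA per cell cannot be told apart.

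**Figure D1:**
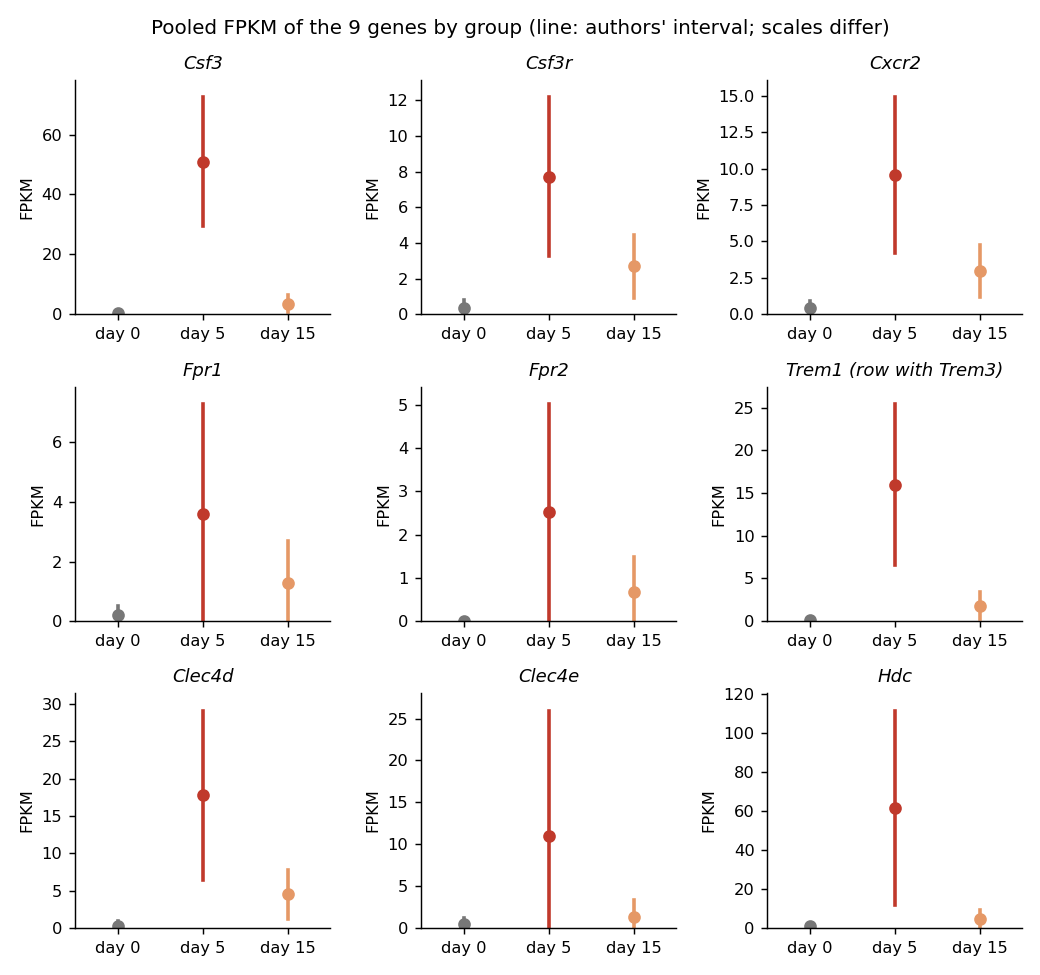
Pooled FPKM (vertical axes, a linear scale of its own in each panel) of the 9 genes at day 0, day 5 and day 15. Points are the authors' group values and lines their intervals; in each panel the day 5 point is the highest, and the intervals of Fpr1 and Clec4e at day 5 reach down to 0.

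Csf3, on chromosome 11 from 98700078 to 98703815 (mm10), had 0.336 FPKM (interval 0 to 0.849) at day 0, 50.99 FPKM (29.5 to 72.5) at day 5 and 3.58 FPKM (0.678 to 6.48) at day 15. The day 5 interval lay clear of both others, while those of day 15 and day 0 overlapped. The log2 ratio of (FPKM + 1) was 5.28 at day 5 against day 0, and the outer bounds of the 2 intervals allowed 4.04 to 6.20. For day 15 over day 5 it was -3.51 (-5.45 to -2.03). Of the gain in FPKM between day 0 and day 5, 6.40% was still present at day 15 on the main row, beside a median of 24.0% over the 9 genes. For comparison, the median share over the 533 loci higher and apart at day 5 was 62.9%.

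A second Csf3 row with the same coordinates was listed at 0 at day 0, at 3.19 FPKM (0 to 18.8) at day 5 and at 3.50 FPKM (0 to 11.6) at day 15, close to the 3.58 FPKM of the main row at that time, and was not apart in any comparison. With both rows summed, Csf3 kept 12.5% of its gain, and its log2 ratio for day 15 over day 5 was -2.77 in place of -3.51, still lower and apart. The summed log2 ratio for day 15 over day 0 was 2.60 in place of 1.78, still not apart. The table gives no strand. Among the 25 rows on either side of this second row, 49 of 49 with a strand in GENCODE M21 were minus-strand genes, whereas 46 of 47 around the main row were plus-strand genes, as Csf3 is. The second Csf3r row lay among 44 minus-strand genes of 45, and Csf3r is a plus-strand gene. These second rows are therefore given apart from the main ones, and whether the libraries kept strand is not given in the sources used here.

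Csf3r (chromosome 4, 126016421 to 126044975) encodes the receptor that carries the Csf3 signal in neutrophils and their precursors. It stood at 0.363 FPKM (0 to 0.830) at day 0, 7.72 FPKM (3.26 to 12.2) at day 5 and 2.69 FPKM (0.906 to 4.47) at day 15. Both injured groups had intervals above that of day 0, and they overlapped each other. Its log2 ratio to day 0 was 2.68 at day 5, with 1.22 to 3.72 allowed by the outer bounds, and 1.44 at day 15, with 0.06 to 2.45 allowed. Its second row had 0.284 FPKM at day 0, 2.93 FPKM at day 5 and 0.810 FPKM at day 15. When both rows were summed, Csf3r was no longer apart at day 15 against day 0. The share of the day 5 gain left at day 15 was 31.6% on the main row and 28.5% with both rows summed. The ratio of Csf3 to Csf3r in FPKM on the main rows was 0.925 at day 0, 6.60 at day 5 and 1.33 at day 15. It depends on the rows used, and at day 0 both intervals reached 0. With rows summed, Csf3 had 0.336, 54.2 and 7.07 FPKM at days 0, 5 and 15, and Csf3r 0.648, 10.7 and 3.50 FPKM. A difference between the courses of ligand and receptor was not tested.

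Around this pair, 16 genes that induce Csf3 or act below its receptor were listed. Of these, 4 were higher and apart at day 5 against day 0 and none was lower, with a median log2 ratio of 1.02 over the 14 tested. They were the cytokines Il6, Lif and Osm of the interleukin-6 family and Socs3, a feedback inhibitor of cytokine receptors. Socs3 had 0.799 FPKM (0.0874 to 1.51) at day 0, 22.3 FPKM (11.6 to 32.9) at day 5 and 6.22 FPKM (2.73 to 9.71) at day 15, with the 3 intervals clear of each other. Il6 reached 6.76 FPKM at day 5 and 0.572 FPKM at day 15, and was listed at 0 with an interval of 0 to 0 at day 0. Lif was at 7.79 FPKM at day 5 against 0.621 FPKM at day 0, and Osm at 6.30 against 0.0117 FPKM. At day 15 Socs3 alone of the 16 was higher and apart against day 0, and Lif, Osm and Socs3 were lower and apart against day 5. The kinases and the transcription factor of the pathway had no calls: Jak1 had 35.7, 25.9 and 23.6 FPKM at days 0, 5 and 15, Jak2 had 11.4, 13.1 and 11.8 FPKM, and Stat3 had 46.3, 53.3 and 46.0 FPKM. Il17a, a T cell cytokine that induces Csf3, stayed under 1 FPKM in all groups, at 0.284, 0.698 and 0.557 FPKM.

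**Figure D2:**
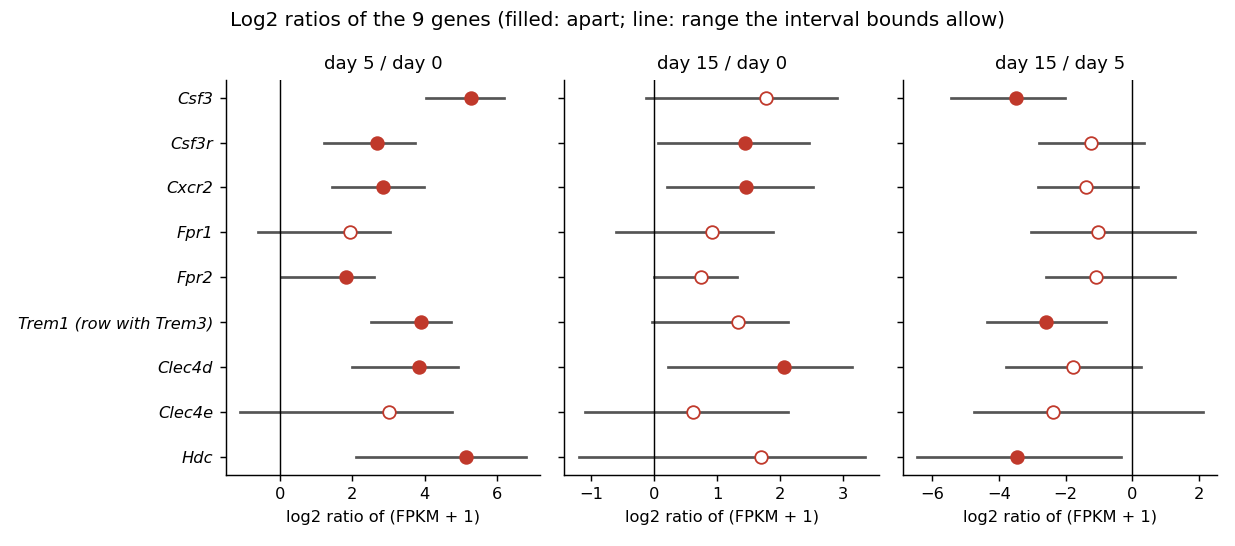
Log2 ratios of (FPKM + 1) of the 9 genes (rows) in the 3 comparisons (panels, each with its own horizontal scale). Filled points are apart by the call rule, open points are not, and lines run between the lowest and highest ratio the interval bounds allow; the largest point at day 5 against day 0 is Csf3 at 5.28.

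Cxcr2 (chromosome 1, 74153994 to 74161856) had 0.451 FPKM (0 to 0.933) at day 0, 9.54 FPKM (4.19 to 14.9) at day 5 and 2.99 FPKM (1.21 to 4.77) at day 15. Both injured groups stood above day 0 without overlap, and they overlapped each other narrowly. The log2 ratio to day 0 was 2.86 at day 5, with 1.42 to 3.99 allowed by the bounds, and 1.46 at day 15, with 0.20 to 2.53 allowed. Cxcr2 kept close to the main row of Csf3r, with a ratio of the 2 in FPKM of 1.24 at days 0 and 5 and 1.11 at day 15. Cxcr1, the related receptor of interleukin-8 type chemokines, was listed at 0 at day 0 and had 0.110 FPKM at day 5 and 0.0696 FPKM at day 15.

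Several chemokines that bind Cxcr2 had far higher FPKM at day 5 than the receptor, led by Cxcl5 at 971 FPKM and Ppbp at 923 FPKM. Among 11 related ligands and receptors, 7 were higher and apart at day 5 against day 0 and none was lower, with a median log2 ratio of 3.75 over 9 tested. At day 15 against day 0, 6 were, with a median of 2.40. The summed FPKM of the 11 was 49.3 at day 0, 2435 at day 5 and 745 at day 15. Cxcl3 was listed at 0 at day 0, with an interval of 0 to 0. Of the ligands, Cxcl1, Cxcl2, Cxcl3 and Cxcl5 were lower and apart at day 15 against day 5. Of the day 5 gain, 7.93% was left at day 15 for Cxcl1, 8.09% for Cxcl2, 13.0% for Cxcl3 and 19.3% for Cxcl5, beside 27.9% for Cxcr2. The share for the ligand Ppbp was above that of the receptor, at 39.3%. Pf4, a related chemokine among the 11, kept 76.7%. Both are stored in platelets, and neither was apart between day 15 and day 5. Cxcr4, the receptor that holds neutrophils in the marrow, was higher and apart at both times, at 3.26 FPKM at day 5 and 2.47 FPKM at day 15, against 0.173 FPKM at day 0.

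Fpr1 and Fpr2, neighbours on chromosome 17 in opposite orientation, were the lowest of the 9 at day 5. Fpr1 (17875658 to 17883939, minus strand) had 0.203 FPKM (0 to 0.521) at day 0, 3.61 FPKM (0 to 7.29) at day 5 and 1.26 FPKM (0 to 2.67) at day 15. All of its intervals overlapped, and it was not apart in any comparison. Fpr2 (17887824 to 17893952, plus strand) was listed at 0 at day 0, and had 2.52 FPKM (0.0156 to 5.02) at day 5 and 0.663 FPKM (0 to 1.48) at day 15. Its call at day 5 rests on a day 0 interval of 0 to 0 and ends when groups with such an interval are left out, an alternative chosen after the data were seen. It also ends with a pseudocount of 5, with FPKM of at least 5 required in the higher group and with a log2 ratio of at least 2 required. In GENCODE M21 the Fpr2 row overlaps the Fpr3 gene too. The other formyl peptide receptor genes in the table, Fpr3, Fpr-rs3, Fpr-rs4 and Fpr-rs6, were listed at 0 in all 3 groups. The Fpr3 row spans only a small part of the annotated gene, so that its 0 says little about Fpr3. Anxa1, which encodes a protein ligand of Fpr2, was abundant throughout, with 851 FPKM (415 to 1287) at day 0, 2368 FPKM (907 to 3830) at day 5 and 1900 FPKM (555 to 3246) at day 15, and was not apart. None of the 10 ligands and family members found was apart in any comparison. Only 4 of them could be tested against day 0, and 3 for day 15 against day 5. Saa3 had 1.05 FPKM (0 to 2.94) at day 0, 10.9 FPKM (0 to 22.3) at day 5 and 3.92 FPKM (0 to 8.78) at day 15. Saa1 went the other way, with 5.40 (0 to 11.4), 0.378 and 0.135 FPKM at the same times.

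Other receptors for chemoattractants gave 2 calls of 8 at day 5 against day 0 (median log2 ratio 1.62), and the same 2 genes, Ccr1 and C3ar1, were called at day 15. Ccr1, a receptor for CC chemokines, stood at 20.6 FPKM (7.57 to 33.7) at day 5 and 7.57 FPKM (2.68 to 12.5) at day 15, against 0.993 FPKM (0 to 2.42) at day 0. C3ar1, the receptor of the complement fragment C3a, was at 4.06 and 6.15 FPKM, against 0.913 FPKM. C5ar1, which binds C5a, had 14.9 FPKM at day 5 against 1.68 FPKM at day 0, with a day 5 interval of 0 to 35.2, and was not apart.

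Trem1 and Clec4e encode receptors that pair with the adaptors Tyrobp and Fcer1g, and Clec4d forms complexes with Clec4e. The Trem1 row (chromosome 17, 48232731 to 48258847) also covers Trem3, so that the 2 genes cannot be told apart. Clec4d (123262107 to 123275791) and Clec4e (123281789 to 123289900) lie side by side on chromosome 6 with their last exons towards each other. The 250 bases before the start of Trem1, Clec4d and Clec4e are shown because all of them hold the hexamer GAGGAA, the core of the binding site of the myeloid transcription factor PU.1. Those of Hdc are shown beside them as a window without it. The sequences are from RefSeq on GRCm38.p6 (mm10), at chr17:48232489-48232738 (plus), chr6:123261857-123262106 (plus), chr6:123289872-123290121 (minus) and chr2:126618679-126618928 (minus), the last inside the annotated Hdc gene but in no GENCODE exon. Capitals mark GAGGAA or its reverse complement TTCCTC.
Trem1: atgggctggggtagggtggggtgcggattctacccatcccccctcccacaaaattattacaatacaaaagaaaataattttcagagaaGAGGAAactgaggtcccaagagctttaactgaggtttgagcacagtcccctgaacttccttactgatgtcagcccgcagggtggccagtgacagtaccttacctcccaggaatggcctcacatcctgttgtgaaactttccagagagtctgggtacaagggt
Clec4d: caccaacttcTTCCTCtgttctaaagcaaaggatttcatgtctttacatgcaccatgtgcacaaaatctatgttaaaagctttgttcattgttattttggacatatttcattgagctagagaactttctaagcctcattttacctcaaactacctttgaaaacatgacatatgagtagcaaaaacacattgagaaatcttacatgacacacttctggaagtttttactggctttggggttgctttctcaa
Clec4e: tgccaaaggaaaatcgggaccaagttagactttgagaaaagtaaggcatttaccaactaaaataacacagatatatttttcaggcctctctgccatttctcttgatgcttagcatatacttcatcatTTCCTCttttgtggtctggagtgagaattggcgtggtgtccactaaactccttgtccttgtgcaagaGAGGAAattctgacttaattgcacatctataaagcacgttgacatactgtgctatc
Hdc: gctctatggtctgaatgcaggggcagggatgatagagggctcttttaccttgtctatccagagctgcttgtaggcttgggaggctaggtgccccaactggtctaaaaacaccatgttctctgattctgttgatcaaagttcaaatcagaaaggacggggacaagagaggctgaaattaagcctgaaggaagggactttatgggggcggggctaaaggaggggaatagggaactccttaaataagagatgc

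The hexamer lay at -162 to -157 from the Trem1 start, at -240 to -235 from that of Clec4d and at -123 to -118 and -56 to -51 from that of Clec4e. Promoters of 8 of the 9 genes were matched (all but Csf3), and 6 of the 8 windows held it on either strand, as did 23.3% of 32817 RefSeq promoters of the same length. Of the other motifs searched on both strands, the C/EBP pattern TTNNGNAA was in 5 of the 8 windows and in 36.8% of all, the STAT pattern TTCNNNGAA in 2 and in 7.01%, and TATAAA in 3 and in 12.4%. The AP-1 pattern TGANTCA, in 6.75% of all windows, and the NF-kB consensus, in 3.90%, had no match in the 8. No matches of different motifs overlapped in the 8 windows, 3 of which overlap an annotated exon of their own gene. A match of letters is not a measured binding site, and binding was not measured here.

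The Trem1 row had 0.131 FPKM (0 to 0.327) at day 0, 15.99 FPKM (6.55 to 25.4) at day 5 and 1.83 FPKM (0.296 to 3.36) at day 15. Day 5 lay clear of both other groups, and the day 15 and day 0 intervals overlapped slightly. The log2 ratio was 3.91 (2.51 to 4.72) at day 5 against day 0 and -2.59 (-4.35 to -0.79) at day 15 against day 5. Of the day 5 gain, 10.7% was left at day 15.

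Clec4d had 0.313 FPKM (0 to 0.872) at day 0, 17.8 FPKM (6.40 to 29.1) at day 5 and 4.50 FPKM (1.18 to 7.81) at day 15. Both injured groups lay above day 0, and their own intervals overlapped. The log2 ratio to day 0 was 3.84 at day 5, with 1.98 to 4.91 allowed by the bounds, and 2.06 at day 15, with 0.22 to 3.14 allowed. Clec4e had 0.494 FPKM (0 to 1.15) at day 0, 11.0045 FPKM (0 to 25.9) at day 5 and 1.29 FPKM (0 to 3.35) at day 15. Its value at day 5 was 22.3-fold that of day 0, but with a lower bound of 0 the groups overlapped and Clec4e was not apart. Clec4d over Clec4e gave a ratio in FPKM of 0.635, 1.61 and 3.48 at days 0, 5 and 15.

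Both adaptors stayed high at day 15. Tyrobp, the adaptor of Trem1, had 3.44 FPKM (0.291 to 6.60) at day 0, 36.0 FPKM (16.2 to 55.8) at day 5 and 35.2 FPKM (17.0 to 53.4) at day 15. Fcer1g, the adaptor of Clec4e, had 9.97 FPKM (0 to 20.1) at day 0, 72.1 FPKM (30.8 to 113) at day 5 and 58.3 FPKM (23.1 to 93.6) at day 15. Both were higher and apart at each time against day 0. The shares of their day 5 gain present at day 15 were 97.7% and 77.9%, beside 10.7% for the Trem1 row, 24.0% for Clec4d and 7.58% for Clec4e. The Tyrobp values are those of its main row, which spans 4.96 times the annotated gene, so they are uncertain. A second Tyrobp row had 0.147, 4.91 (0 to 12.4) and 1.11 FPKM at days 0, 5 and 15. It was not apart and kept 20.3% of its gain. Of the 10 adaptors and signalling genes listed, 5 were higher and apart at day 5 (median log2 ratio 1.23) and 4 at day 15 (0.88) against day 0, and 1, the inflammasome gene Nlrp3, was lower and apart at day 15 against day 5, at 1.24 FPKM against 8.16 FPKM. Among the 5, Pglyrp1, a described ligand of Trem1, lies on a row merged with Mill2, which is uncertain. Syk, the kinase below both adaptors, had 6.09, 8.18 and 5.11 FPKM at days 0, 5 and 15 and was not apart.

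The related receptors Clec4n, Clec7a and Trem2 had their highest values at day 15. Clec4n, the neighbour of Clec4d that encodes dectin-2, had 1.60 FPKM (0 to 3.50) at day 0, 16.8 FPKM (6.99 to 26.6) at day 5 and 25.05 FPKM (11.8 to 38.2) at day 15. Clec7a, the glucan receptor dectin-1, had 0.570 FPKM at day 0, 7.90 FPKM at day 5 and 8.45 FPKM at day 15. Trem2, a lipid-sensing receptor of macrophages, had 1.06 FPKM (0 to 2.201) at day 0, 5.15 FPKM (1.04 to 9.25) at day 5 and 9.59 FPKM (3.56 to 15.6) at day 15. Among 13 relatives, 2 were higher and apart at day 5 (median log2 ratio 1.06) and 4 at day 15 (1.55), with day 0 as the base. Clec5a, among the 4, lies on a locus far longer than the gene. None was apart between day 15 and day 5, where 10 of the 13 had the higher value at day 15. The median log2 ratio over the 7 tested was 0.30, beside -0.01 over all tested loci. The ratio of the Trem1 row to Trem2 in FPKM was 0.124 at day 0, 3.10 at day 5 and 0.191 at day 15, and that of Clec4d to Clec4n 0.196, 1.06 and 0.179. Ratios within a group do not depend on scaling between groups. Without replicate columns the difference between these courses could not be tested.

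**Figure D3:**
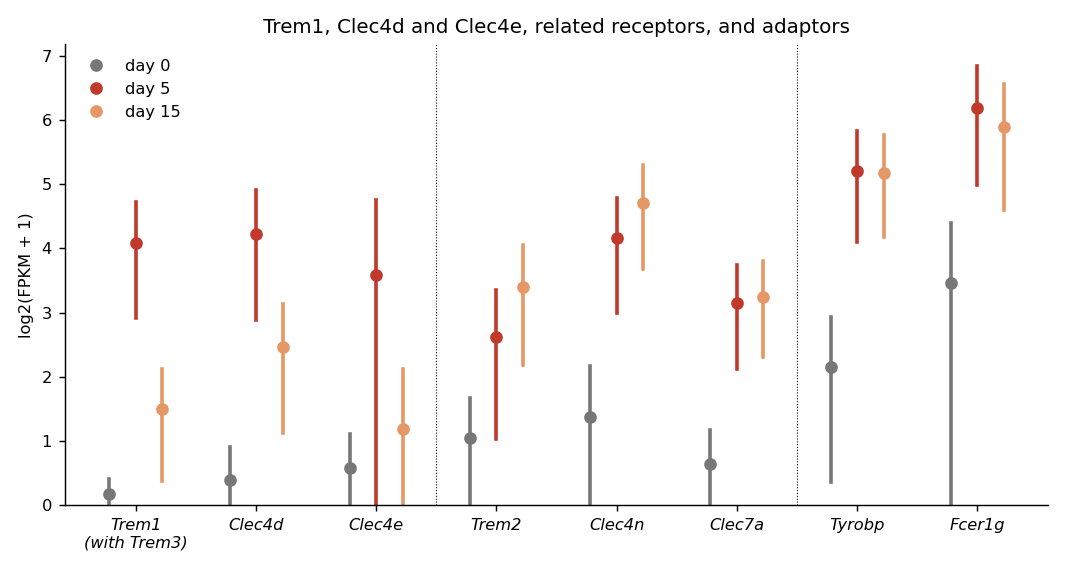
Level as log2(FPKM + 1) of Trem1 (row shared with Trem3), Clec4d and Clec4e (left), the related receptors Trem2, Clec4n and Clec7a (middle) and the adaptors Tyrobp (main row only) and Fcer1g (right), with the authors' intervals as lines. The day 15 point is below the day 5 point for the left genes (1.83 against 15.99 FPKM for the Trem1 row) and above it for the middle genes (25.05 against 16.8 FPKM for Clec4n).

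Hdc (chromosome 2, 126593660 to 126619367, minus strand) had 0.761 FPKM (0 to 1.94) at day 0, 61.5 FPKM (11.7 to 111) at day 5 and 4.70 FPKM (0.277 to 9.13) at day 15. The day 5 interval was above both others, and those of day 15 and day 0 overlapped. The log2 ratio was 5.15 (2.12 to 6.81) at day 5 against day 0 and -3.45 (-6.46 to -0.33) at day 15 against day 5. At day 5 Hdc and Csf3 were the highest of the 9 and overlapped each other. Csf3 lay narrowly above the third, Clec4d, without overlap, with a lower bound of 29.5 against an upper bound of 29.1 FPKM. The wide Hdc interval overlapped those of Clec4d, the Trem1 row, Clec4e, Cxcr2 and Csf3r too. No other neighbours in the order of levels at day 5, and none at day 0 or day 15, were without overlap. Of the day 5 gain of Hdc, 6.49% was left at day 15.

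Mast cells are the cells best known for Hdc. None of the 9 mast cell markers found was apart in any comparison, with 6 of them tested at day 5 and 5 at day 15 against day 0. Their summed FPKM was 38.4 at day 0, 38.1 at day 5 and 26.4 at day 15. This sum was led in every group by Kit, also a gene of other cells, with 21.5, 13.3 and 9.65 FPKM. The chymase gene Cma1 had 4.76 FPKM (0 to 9.997) at day 0, 7.36 FPKM (0.763 to 14.0) at day 5 and 5.34 FPKM (1.24 to 9.44) at day 15. The protease gene Mcpt4 had 4.16, 5.09 and 3.52 FPKM, and the tryptase gene Tpsb2 2.65, 3.96 and 1.74 FPKM at the same times. Cpa3, a carboxypeptidase gene, had 4.57, 6.68 and 4.90 FPKM, and a second Cpa3 row was at 14.4 FPKM (0 to 43.6), 0.201 and 0. The ratio of Hdc to Cma1 in FPKM was 0.160 at day 0, 8.35 at day 5 and 0.881 at day 15. Mcpt8, a basophil protease gene, was listed at 0 at days 0 and 15 and had 0.150 FPKM at day 5.

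Genes for the handling of histamine showed no calls. None of the 8 was apart in any comparison, but only 2 of them, Hnmt and Slc18a2, reached 1 FPKM and could be tested. Hrh1, Hrh2, Hrh3 and Hrh4, the receptors, stayed below 1 FPKM in all groups, with the highest value for Hrh1 at day 5, 0.424 FPKM. Hnmt, which inactivates histamine by methylation, had 5.19 FPKM (1.49 to 8.89) at day 0, 2.13 FPKM (0.332 to 3.93) at day 5 and 4.05 FPKM (1.15 to 6.95) at day 15. Slc18a2, the vesicle transporter of monoamines, had 1.16, 1.74 and 1.42 FPKM.

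**Figure D4:**
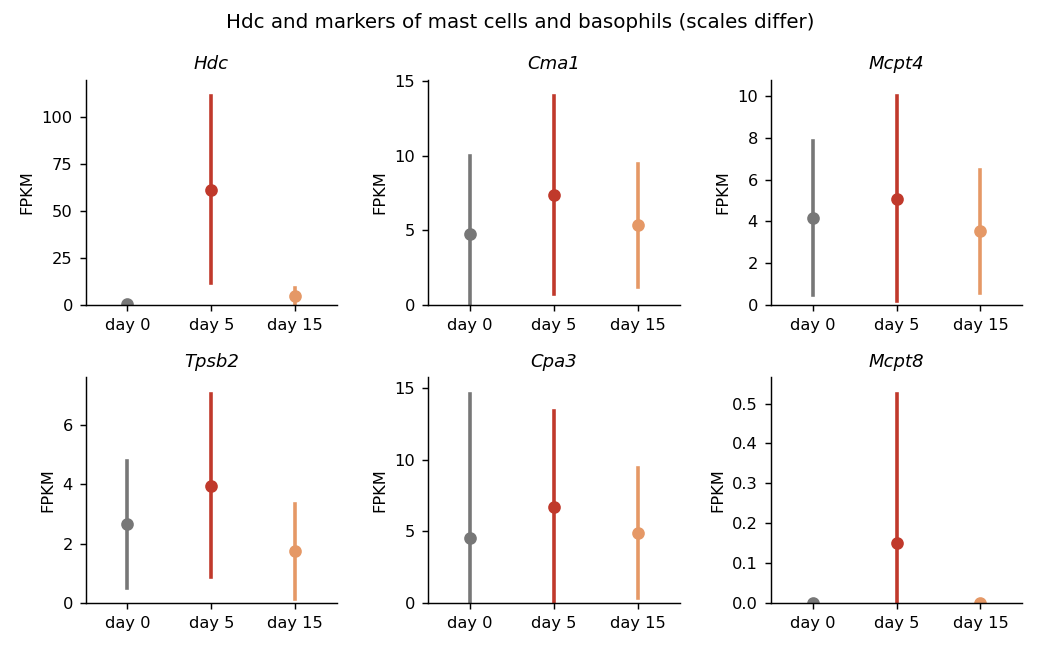
Pooled FPKM (vertical axes, each panel with its own scale) of Hdc, 4 mast cell genes and the basophil gene Mcpt8 at day 0, day 5 and day 15, with the authors' intervals as lines. Hdc stands at 61.5 FPKM at day 5 against 0.761 FPKM at day 0, while the intervals of the other genes overlap between all groups.

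Other neutrophil genes were set beside the 9. Of 12 granule genes, 4 (Ltf, Lcn2, Mmp8 and Mmp9) were higher and apart at day 5 against day 0. Ltf and Lcn2 are also made by epithelia. No other granule gene reached 1 FPKM in either group. Lcn2, Mmp8 and Mmp9, below 1 FPKM at day 0, passed this filter only through day 5. The median log2 ratio of 3.55 over the 4 therefore describes only genes that the filter kept. The 4 genes kept 60.6% (Ltf), 34.1% (Lcn2), 44.0% (Mmp8) and 41.9% (Mmp9) of their day 5 gain at day 15, each above the highest share of the 9 genes, 31.6%. Elane and Ctsg were listed at 0 in all groups, Mpo and Prtn3 at 0 except at day 5 (0.0194 and 0.181 FPKM), and Camp and Ngp stayed below 1 FPKM. Elane and Prtn3 lie on loci far longer than the genes, so that their values are uncertain. Of 19 other neutrophil markers found, 7 were higher and apart at day 5 against day 0 (median log2 ratio 2.16) and 1, Asprv1, which keratinocytes also express, was lower and apart. By value, 5 of the 19 stood higher at day 15 than at day 5, while the median log2 ratio over the 16 tested was -1.28. Among the 5, Itgam had 34.0, 40.0 and 55.7 FPKM at days 0, 5 and 15. BC100530 had 2101, 2636 and 4935 FPKM and Stfa1 64.7, 43.2 and 63.0 FPKM. Itgam, BC100530 and Stfa1 were not apart in any comparison. S100a8, an alarmin gene of neutrophils and injured epithelium, kept 23.5% of its day 5 gain at day 15 and S100a9 19.6%. Il1r2, a decoy receptor for interleukin-1, kept 74.7%. Retnlg, a resistin-like gene of mouse neutrophils, was listed at 0 at day 0, with 2.81 FPKM (0 to 5.80) at day 5 and 0.227 FPKM at day 15, and was not apart. Ly6g is not named in the table used here. The integrin gene Itgb2, shared by most leukocytes, was at 13.1 FPKM at day 5 and 11.1 FPKM at day 15, against 1.63 FPKM at day 0, and kept 82.8% of its gain.

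Of 15 macrophage and monocyte markers, 4 were higher and apart at day 5 (median log2 ratio 1.16) and 6 at day 15 (1.67), with day 0 as the base. Over all tested loci, 3.42% and 2.91% were. The summed FPKM of the 14 on rows of their own was 149 at day 0, 668 at day 5 and 1049 at day 15. This sum was led in every group by Lyz2, with 68.3, 385 and 685 FPKM. In all, 11 of the 15 had a higher value at day 15 than at day 5, whereas all 9 neutrophil-related genes had a lower one. The median log2 ratio for day 15 over day 5 was 0.34 over the 15 and -1.77 over the 9, beside -0.01 over all tested loci. Cd14, the co-receptor for lipopolysaccharide, was the exception among the calls, lower and apart at 19.9 FPKM at day 15 against 75.1 FPKM at day 5. The part of these cell types in the values of the 9 genes was not tested.

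Loci with courses most like the median of the 9 were found by the Euclidean distance over the log2 ratios of day 5 and day 15 to day 0, among 8880 loci with FPKM of at least 5 in some group. The nearest 7, in order, were Tnfaip2, Fbn2, Mab21l3, Bdkrb1, Egr1, Antxr2 and Dio2, at distances of 0.07 to 0.25 from the median course of 3.01 and 1.44. The 3 groups give only 2 ratios, so that likeness over them is weak. Tnfaip2, a gene induced by tumour necrosis factor, had 4.50 FPKM at day 0, 41.1 FPKM at day 5 and 13.7 FPKM at day 15. Fbn2 encodes a microfibril protein, Bdkrb1 a bradykinin receptor, Egr1 an early-response transcription factor and Dio2 an enzyme that activates thyroid hormone. Of the 9 genes themselves, Cxcr2 lay nearest to the median course, at 0.15, and Csf3 farthest, at 2.30.

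**Figure D5:**
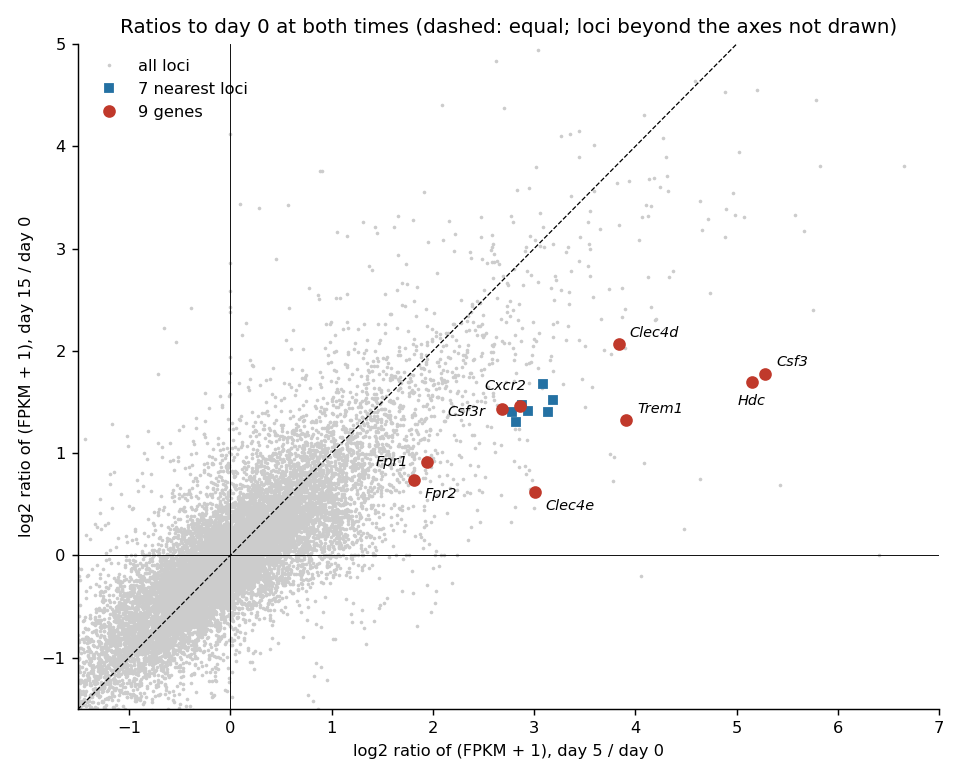
Log2 ratio of (FPKM + 1) at day 15 against day 0 (vertical) and at day 5 against day 0 (horizontal) for the loci tested (grey, those beyond the axes not drawn), the 9 genes (red) and the 7 loci nearest to their median course (blue). Both axes share the day 0 values; all 9 genes lie below the dashed line of equal ratios, with Csf3 at 5.28 and 1.78.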

How the data were processed

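RNA was measured by RNA-seq of polyadenylated transcripts in 6 samples of whole cornea. The authors deposited a Cuffdiff gene table of FPKM values and their interval bounds; per the file headers it has 1 column set for each group of 2 samples. Cuffdiff, Cufflinks 2.2.1, Bowtie2 2.2.6, TopHat2 2.1.0 and mm10 are listed in the submitters' processing notes. There are 0 columns of single samples, so limma, planned for such columns, could not be run, and depth per sample is unknown. FPKM of low genes is imprecise, and a pseudocount of 1 understates their ratios. Folds are FPKM ratios without a pseudocount.

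Of the 28539 rows, a comparison took those whose status was OK in both groups and whose larger FPKM reached 1. The call rule was checked on simulated data, with folds planted only at loci with a mean FPKM of at least 5. The check therefore says little about lower levels, such as those of the 9 genes at day 0. For a symbol on several rows, the row with the highest mean over all groups was used. Starts were shifted by 1 to be 1-based: 5751 of 22315 single-symbol loci then began at the GENCODE M21 start. The 9 genes and the 16 gene lists were chosen with earlier results of these data known, and the promoter motifs from general knowledge after the values were seen. Named were the 9 genes, called or most changed list members, defining markers, and the 8 nearest loci, 1 of which is not reported here. Alternatives varied the pseudocount, filter, fold, intervals, scaling, row sums and shared rows. Python 3.11.15, numpy 2.4.6, pandas 2.3.3 and matplotlib 3.10.9 were used.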

Additional observations from a re-analysis of the deposited data

How the results depend on the processing

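No paired analysis was possible because the table holds no columns of single samples, and for the same reason no replicate could be left out. The 7 calls at day 5 against day 0 numbered 6 to 9 under every alternative run. At day 15 against day 0, the 3 calls became 0 with a pseudocount of 5, 0 with FPKM of at least 5 required in the higher group, 1 with a log2 ratio of at least 2 required, and 6 with the intervals not used. At day 15 against day 5, the 3 lower calls became 9 with the intervals not used. All 9 genes stood under 5 FPKM at day 15 and day 0, which the first pair of settings penalises by construction. Summing rows of a symbol left 2 calls at day 15 against day 0, and leaving out the shared Trem1 row left 2 lower calls at day 15 against day 5. Over all loci, the 533 higher calls at day 5 became 308 with a log2 ratio of at least 2 and 1687 with the intervals not used. Of 294 results of single genes under the alternatives, 270 kept their side of the call, 13 lost the call and 11 gained it. None changed direction, but only scaling and row sums could have changed it. The other alternatives left the ratio as it was or, for the pseudocount, cannot change its sign. Scaling to a median log2 ratio of 0 shifted log2 ratios of FPKM without a pseudocount by 0.11 for day 5 over day 0, and neither this nor upper-quartile scaling changed a call among the 9. Depth is unknown, and levels near or below 1 FPKM, which hold for all 9 genes at day 0, limit how well any fold is known.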

Other observations

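None of 9 other colony-stimulating factors and their receptors was apart in any comparison. Csf1, the growth factor of macrophages, had 8.47 FPKM (0 to 17.4) at day 0, 14.8 FPKM (6.13 to 23.5) at day 5 and 17.1 FPKM (6.99 to 27.2) at day 15. Csf2, which acts on granulocytes and macrophages, stayed below 1 FPKM, at 0.0451, 0.307 and 0.645 FPKM. Csf2rb, a receptor chain shared by several cytokines, had 0.682, 9.31 (0 to 21.4) and 2.39 FPKM at days 0, 5 and 15.

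Among 10 markers of dendritic, T, B and NK cells, none was apart at day 5 against day 0 and 1, Itgax, was higher and apart at day 15, at 1.91 FPKM against 0.363 FPKM at day 0. Their summed FPKM was 1.90 at day 0, 6.38 at day 5 and 8.10 at day 15. Of 8 epithelial markers, Krt17, a keratin of wounded epithelium, was the only one apart, higher at both times against day 0. Of 8 fibroblast and endothelial markers, Pecam1, Cdh5 and Tek, genes of vessel walls, were higher and apart at both times, and Pdgfra, on a row with a microRNA, at day 5. None of the 3 basophil markers was apart. Cd200r3, on a row shared with Cd200r2, had 0.426 FPKM at day 0, 9.78 FPKM (0 to 25.7) at day 5 and 10.5 FPKM (0 to 26.3) at day 15.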
